A study of Mus musculus with 14 samples.

Results

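The genes described here are 10 members of the machinery that commits a cell to divide: the D-type cyclins Ccnd1, Ccnd2 and Ccnd3, the cyclin-dependent kinases Cdk4, Cdk6 and Cdk2, the kinase inhibitors Cdkn1b and Cdkn2c, the retinoblastoma gene Rb1, and Ccne1, which encodes cyclin E1. They were chosen by name as the core of this pathway and are 10 of the 55487 genes in the deposited table. All 10 passed the filter on low counts and were tested among 16876 genes. In GENCODE M21 on GRCm38, which is not the build the submitters name, the cyclin genes are Ccnd1 at chr7:144929931-144939925 (minus strand), Ccnd2 at chr6:127125162-127152193 (minus strand), Ccnd3 at chr17:47505051-47599691 (plus strand) and Ccne1 at chr7:38097984-38107534 (minus strand). The kinase genes are Cdk2 at chr10:128697939-128705031 (minus strand), Cdk4 at chr10:127063534-127067920 (plus strand) and Cdk6 at chr5:3341485-3531008 (plus strand). The inhibitor genes and Rb1 are Cdkn1b at chr6:134920401-134925513 (plus strand), Cdkn2c at chr4:109660876-109667189 (minus strand) and Rb1 at chr14:73183673-73325822 (minus strand).

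The samples were 14 bulk RNA-seq libraries of GFP-sorted ureteric bud cells, the epithelial branches that form the collecting ducts, from mouse embryonic kidneys. Of these, 5 libraries carried the label Cep120 KO, set against 3 controls of the Cep120 line, and 3 carried the label Pkd1 KO, set against 3 controls of the Pkd1 line. Sample titles of every group begin with hox, and the design text states that the Hoxb7-Cre transgene also makes GFP in the ureteric bud lineage; no label gives the transgene of the Pkd1 line in full. Controls have the genotype label WT while their titles read het, and both are given here as labelled. The protocol attached to every sample gives E13.5 (days of embryonic age), while its wording names only wild-type and Hoxb7-Cep120 kidneys and not the Pkd1 line. No label says whether a library is 1 embryo or a pool, so p-values measure only the spread between these libraries, pooled over the 4 groups. Cep120 encodes a centrosomal protein needed for centriole assembly, while Pkd1 encodes polycystin-1, whose loss underlies most inherited polycystic kidney disease.

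In the first growth phase of the cell cycle, D-type cyclins bind CDK4 or CDK6, and cyclin E binds CDK2. The active kinases phosphorylate the retinoblastoma protein, which then releases E2F transcription factors, and E2F target genes of DNA replication are switched on. Inhibitors of the INK4 class, such as p18 from Cdkn2c, bind CDK4 and CDK6, and those of the Cip/Kip class, such as p27 from Cdkn1b and p21 from Cdkn1a, bind cyclin and CDK complexes. In the growing kidney the bud tips proliferate while they branch.

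Totals ran from 11347657 to 27967596 estimated reads. The libraries labelled Cep120 KO held 16293837 to 23761736 and the Cep120 controls 18200490 to 27475901, while Pkd1 KO libraries held 11347657 to 27967596 and Pkd1 controls 22061677 to 23181220. Cep120 itself was at 7.87 to 21.2 CPM (read counts scaled to library size with TMM factors) in the libraries labelled Cep120 KO, against 6.41 to 10.6 CPM in the Cep120 controls (log2 difference 0.83, SE 0.312, edgeR quasi-likelihood adjusted p 0.0832). It was not lower, and no label names the deleted exons, so the reads do not check that label. Pkd1 was at 2.39 to 2.68 CPM in Pkd1 KO libraries, against 3.34 to 4.6 CPM in their controls (log2 difference -0.65, SE 0.43, adjusted p 1). Of 14 ureteric bud markers, every one had reads in every library; their summed level was 1442 to 3825 CPM in libraries labelled Cep120 KO, against 3447 to 3653 CPM in the Cep120 controls. Libraries 6 and 7 labelled Cep120 KO set the low end, at 1442 and 2081 CPM. Those same libraries had 635 and 498 CPM of summed nephron progenitor markers, against 28.5 to 33.6 CPM in libraries 2, 4 and 5 and 47.8 to 63.1 CPM in the Cep120 controls. Libraries 4 to 7 also had a length trend of 0.837 to 1.16 on the log2 scale between the longest and the shortest genes, against -0.265 to 0.367 in the other 10 libraries. In the same comparison 11 of 12 immediate early and heat shock genes were called higher, with summed levels of 237, 1097, 1146, 1373 and 1774 CPM in libraries 2, 4, 5, 6 and 7 labelled Cep120 KO, against 158 to 204 CPM in the Cep120 controls. Of all 16876 genes, 8.4% were called higher and 6.26% lower in libraries labelled Cep120 KO against their controls. Among marker lists, Pax2 was the 1 of 14 bud markers called higher and Six2 the 1 of 7 tested nephron progenitor markers called higher. Of those 7, 6 had a positive log2 difference and 1 a negative one. Cited1 of that list had 23.5 to 50.8 CPM in libraries labelled Cep120 KO, against 35.4 to 55.5 CPM in the Cep120 controls. Of 10 leukocyte markers 3 were called lower (Coro1a, Fcer1g and Tyrobp), of 10 erythroid and platelet markers 4 (Gp9, Pf4, Ppbp and Itga2b), and of 8 stromal and 7 endothelial markers 0. The part of any of these in the results below was not tested.

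Of the paired kinases, Cdk4 had the highest level of the 10 genes per unit length and Cdk6 one of the lowest (below), so the 250 bases before the RefSeq start of each are shown (RefSeq, GRCm38.p6), with matches to the E-box CACGTG, a word that reads the same on both strands, in capitals.
Cdk4, chr10:127063285-127063534, plus strand: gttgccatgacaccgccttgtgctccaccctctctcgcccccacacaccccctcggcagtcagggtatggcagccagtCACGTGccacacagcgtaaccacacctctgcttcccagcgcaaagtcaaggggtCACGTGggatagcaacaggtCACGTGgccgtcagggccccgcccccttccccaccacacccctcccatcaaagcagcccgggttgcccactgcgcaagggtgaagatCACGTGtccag
Cdk6, chr5:3343643-3343892, plus strand: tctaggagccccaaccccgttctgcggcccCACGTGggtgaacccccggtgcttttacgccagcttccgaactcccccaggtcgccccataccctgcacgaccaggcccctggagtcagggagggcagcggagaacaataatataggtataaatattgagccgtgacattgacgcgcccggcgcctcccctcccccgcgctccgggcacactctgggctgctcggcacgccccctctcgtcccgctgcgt
The Cdk4 window holds 4 matches, 172, 118, 98 and 11 bases before the start, and the Cdk6 window holds 1, 220 bases before it. At least 1 match stood in 6.02% of 32851 RefSeq windows of the same length, and at least 4 stood in 0.0213%. A word for E2F (TTT, then CC, CG, GC or GG, then CGC, either strand) had 1 match among the windows of the 7 matched members, in Cdk2, and stood in at least 1 copy in 1.86% of all windows. A match describes letters only.

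Per unit length (TPM, the deposited length-scaled level), Cdk4 had the highest level of the 10 genes in the 6 controls, with a median of 1867 TPM and a range of 1720 to 1966. Ccnd2 followed at 265 TPM (242 to 370), and then Ccnd3 at 56.3 (42.7 to 65.9), Ccnd1 at 36.4 (27.4 to 56.1) and Cdk2 at 35.9 (29.3 to 42.9). Ccne1 (11.9; 10.6 to 15.1), Cdkn1b (10.7; 5.02 to 12.8), Cdk6 (5.06; 3.72 to 7.53), Rb1 (1.4; 0.535 to 6.24) and Cdkn2c (0.308; 0 to 1.08) were lower still. Only Cdk4, Ccnd2 and Cdk2 did not overlap the next gene in the order; the rest of the neighbours overlapped over the 6 controls. Among the D-type cyclins Ccnd2 made up 70.5 to 82.4% of the summed TPM in every library. Cdk6 made up 0.122 to 0.583% of the TPM of Cdk4 and Cdk6 together. Gene TPM in these files weighs short transcript models heavily, so these orders hold for the deposited scale: of Ccnd2, the listed transcripts held 9.43 to 12.9% of the gene's reads in 12 libraries and 35.1 and 32.0% in libraries 6 and 7 labelled Cep120 KO, and the rest were not analysed here. The 627-base model Ccnd2-206 made up 38.69 to 53.9% of the TPM of Ccnd2, from 6.37 to 22.66% of its reads. The 415-base non-coding model Ccnd2-207 made up 13.18 to 29.78%, from 1.14 to 6.54% of the reads. Both TPM shares were highest in libraries 6 and 7 labelled Cep120 KO. Of Cdk4, a 468-base model with a retained intron, Cdk4-209, made up 37.3 to 40.93% of the gene's TPM over the 14 libraries. In bulk samples, fewer cells of a type and less RNA per cell cannot be told apart.

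**Figure D1:**
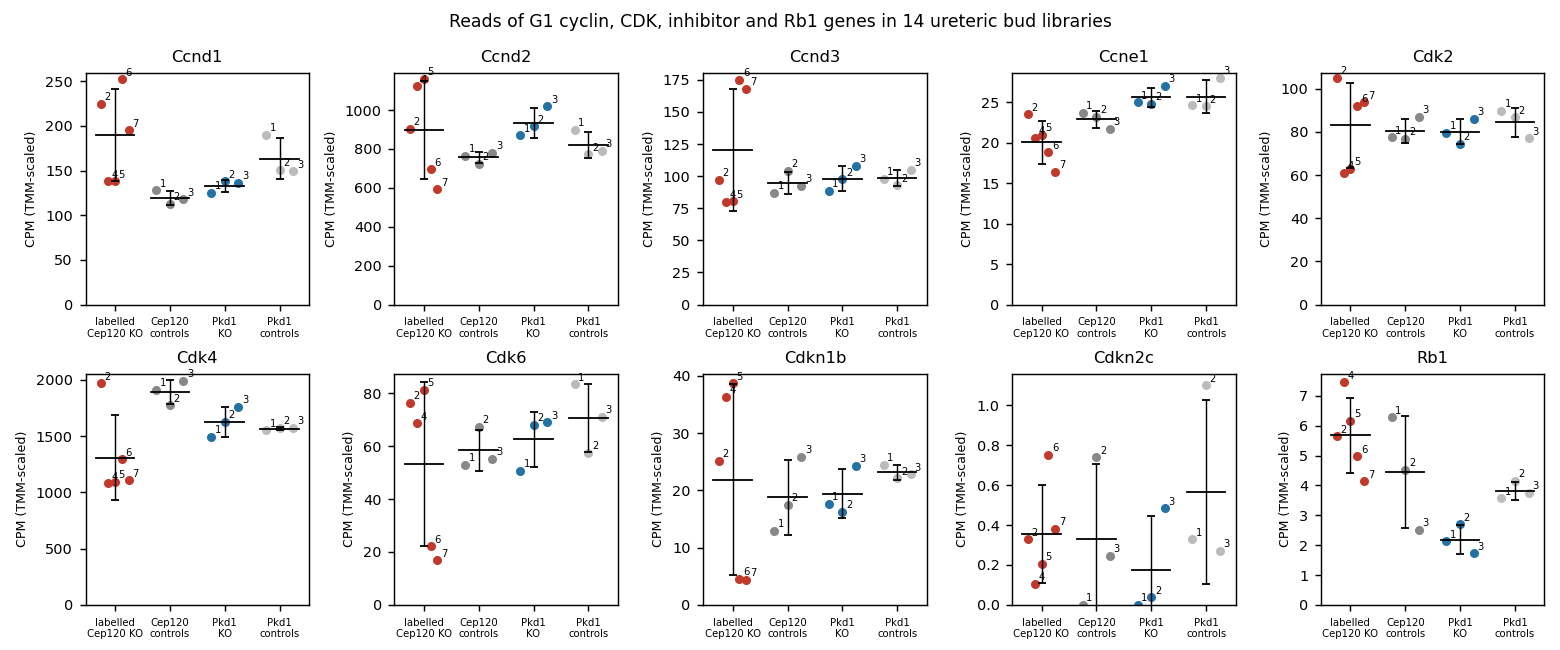
CPM (TMM-scaled, linear axis from 0) of each of the 10 genes in the 14 libraries, numbered by replicate, with the group mean and SD as bar and whiskers. Ccnd1 is the gene whose 5 libraries labelled Cep120 KO (138 to 252 CPM) all stand above the 3 Cep120 controls (113 to 128 CPM).

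In the edgeR fit over 14 libraries, Ccnd1 was the only one of the 10 genes called in any comparison. Cyclin D1, its product, is the D-type cyclin most often amplified in tumours, and a common target of growth-factor signalling. Ccnd1 had 225, 138, 138, 252 and 195 CPM in libraries 2, 4, 5, 6 and 7 labelled Cep120 KO, against 128, 113 and 118 CPM in the Cep120 controls. Every library labelled Cep120 KO was above every Cep120 control, with libraries 4 and 5 nearest to them. The mean was 190 ± 51.4 CPM (SD, n = 5) in libraries labelled Cep120 KO and 120 ± 7.5 CPM in the Cep120 controls (SD, n = 3), a log2 difference of 0.66 (SE 0.205, edgeR quasi-likelihood test with Benjamini-Hochberg adjustment, adjusted p 0.0462). One of the 10 genes called higher compares with 8.4% of all 16876 genes called higher in the same comparison and 14.7% called in either direction, and 6.41% of all genes stood above every control in every library and 8.75% below. The count of 1 was thus near the background. The median log2 difference of the 10 genes was 0.15, against 0.12 over all genes. Ccnd1 was called in 8 of 27 alternative settings and missed the threshold in 19, while its log2 difference was positive in all of them, from 0.25 to 1.45. The adjusted p was above 0.05 on leaving out any library of either line except libraries 2, 4 and 5 labelled Cep120 KO. It was 0.107 without libraries 6 and 7 together, where the log2 difference was 0.47. In an edgeR fit of the Cep120 groups alone the adjusted p of Ccnd1 was 0.158, and 0 of 15972 genes were called.

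In the Pkd1 line Ccnd1 was not called. It had 125, 138 and 136 CPM in Pkd1 KO libraries, against 190, 151 and 149 CPM in Pkd1 controls, so every Pkd1 KO library lay below every Pkd1 control, by a log2 difference of -0.30 (SE 0.225, adjusted p 1). The Cep120 controls, at 113 to 128 CPM, also lay below the Pkd1 controls, at 149 to 190 CPM (log2 difference -0.45, SE 0.225, adjusted p 0.998). Against all 6 controls pooled, the difference in the libraries labelled Cep120 KO was 0.42 (edgeR adjusted p 0.104). The difference between the Cep120 and the Pkd1 effect on Ccnd1 was 0.96 (SE 0.303, adjusted p 0.176), not past the threshold; these comparisons share control libraries. Almost all Ccnd1 reads (91.55 to 99.77%) fell on the coding transcript Ccnd1-201. The share on transcripts with a retained intron was 1.49, 1.13, 1.45, 5.64 and 8.45% in libraries 2, 4, 5, 6 and 7 labelled Cep120 KO, against 0.229, 0.561 and 0.835% in the Cep120 controls. It was highest in libraries 6 and 7, where those short models made 31.7 and 37.0% of the gene's TPM, so the TPM of Ccnd1 includes them. One end of the annotated span of Ccnd1 overlaps that of LTO1 on the opposite strand (9273 reads over the 14 libraries). Whether exons are shared there, and how such reads were assigned, was not examined.

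**Figure D2:**
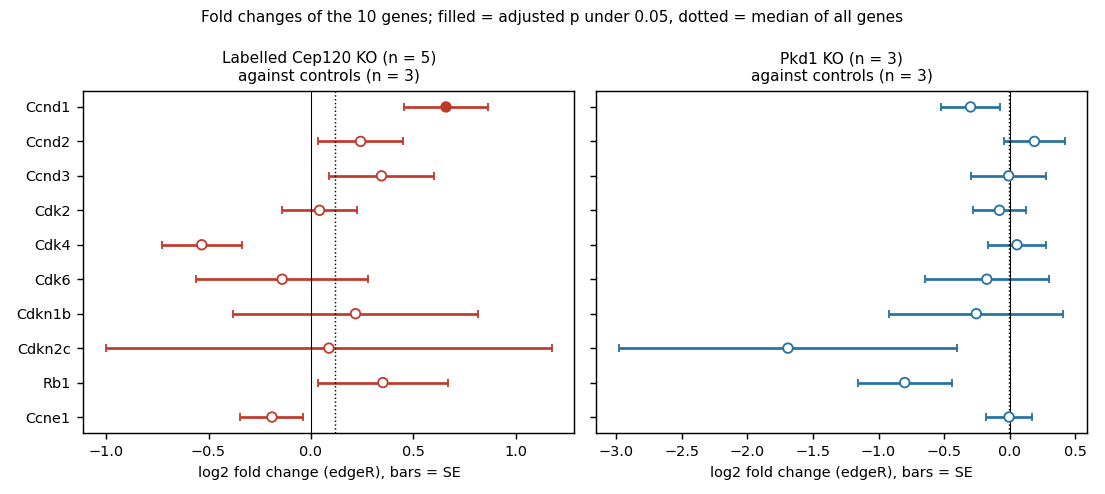
Log2 fold change (edgeR, bars are SE) of the 10 genes in libraries labelled Cep120 KO against their controls (left) and in Pkd1 KO against its controls (right); filled points have an adjusted p under 0.05. Only Ccnd1 at 0.66 (left) is filled, and none is at right.

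The other D-type cyclins did not pass the threshold. Ccnd2, the cyclin D2 gene, had 905, 1122, 1161, 695 and 593 CPM in libraries 2, 4, 5, 6 and 7 labelled Cep120 KO, against 766, 724 and 780 CPM in the Cep120 controls. Libraries 2, 4 and 5 were above every control and libraries 6 and 7 below (log2 difference 0.24, SE 0.209, adjusted p 0.438). Without libraries 6 and 7 the log2 difference was 0.49 (edgeR adjusted p 0.0474). On the TPM scale the same gene gave 295, 547, 580, 900 and 772 in those libraries, against 262, 242 and 266 TPM in the Cep120 controls: libraries 6 and 7 were lowest in CPM and highest in TPM, so the order of libraries depends on the scale. The log2(TPM + 1) difference was 1.17 (limma adjusted p 0.0188), and with offsets for exon length and GC content the edgeR difference was -0.07 (adjusted p 0.832). Ccnd3, the cyclin D3 gene, had 97.2, 80.2, 80.3, 175 and 168 CPM in the libraries labelled Cep120 KO, against 87, 104 and 92.4 CPM in the Cep120 controls. Libraries 6 and 7 were above every control, library 2 lay among them and 4 and 5 below (log2 difference 0.35, SE 0.256, adjusted p 0.365). In Pkd1 KO libraries Ccnd2 had 870, 916 and 1020 CPM, against 899, 773 and 790 CPM in Pkd1 controls (log2 difference 0.19, SE 0.232, adjusted p 1). Ccnd3 had 88.4, 97.6 and 108 CPM in Pkd1 KO libraries, against 98.1, 92.8 and 105 CPM in Pkd1 controls, and both genes overlapped their controls. One end of the annotated span of Ccnd3 overlaps that of Bysl on the opposite strand (19281 reads over the 14 libraries). Whether exons are shared there, and how such reads were assigned, was not examined.

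**Figure D3:**
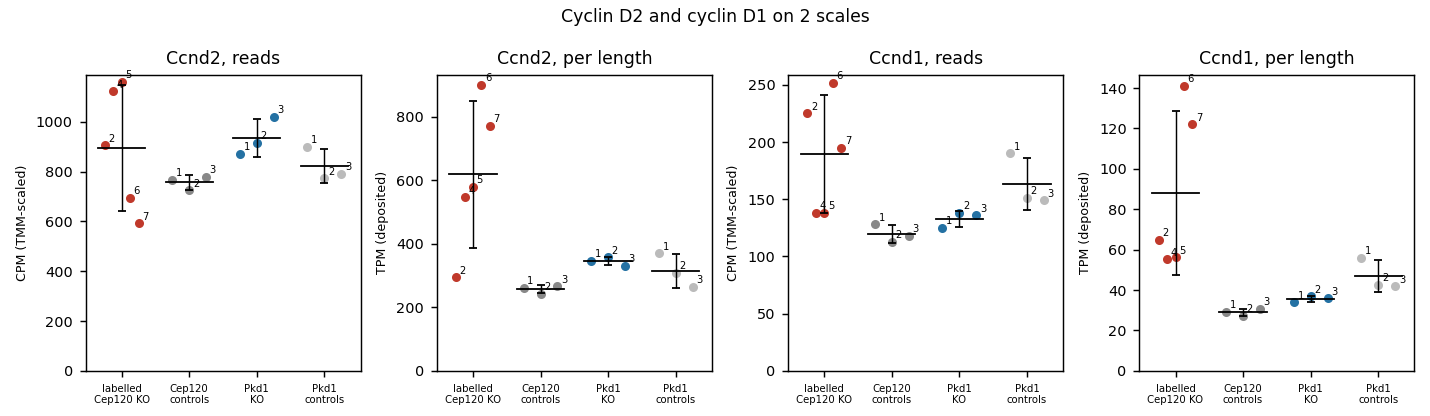
Ccnd2 and Ccnd1 in CPM (TMM-scaled) and in deposited TPM, per library, with mean and SD. For Ccnd2, libraries 6 and 7 labelled Cep120 KO are lowest in CPM (695 and 593) and highest in TPM (900 and 772).

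Among the kinases, Cdk4 had the largest difference in the libraries labelled Cep120 KO, without a call. It had 1970, 1080, 1092, 1292 and 1105 CPM in libraries 2, 4, 5, 6 and 7 labelled Cep120 KO, against 1909, 1774 and 1992 CPM in the Cep120 controls. Libraries 4 to 7 were below every control and library 2 lay among them. The log2 difference was -0.53 (SE 0.195, edgeR adjusted p 0.0766). Without library 2 it was -0.73 (edgeR adjusted p 0.000172). That fit called 5719 of 16825 genes, against 2475 of 16876 in the main fit. Libraries 4 to 7 are then left, all with the length trend given above. The label and that trend cannot be told apart there. With all 14 libraries and offsets for exon length and GC content, the edgeR difference was -0.57 (adjusted p 0.0977). What the trend contributes to the Cdk4 difference was not tested. On the TPM scale Cdk4 had 2166, 1779, 1802, 2374 and 2215 TPM in libraries 2, 4, 5, 6 and 7. The Cep120 controls had 1766, 1720 and 1966 TPM. The sign thus flips with the scale (log2(TPM + 1) difference 0.18, limma adjusted p 0.215). On both scales the Cdk4 difference lay below the median of all genes. In Pkd1 KO libraries Cdk4 had 1491, 1627 and 1760 CPM, against 1550, 1575 and 1572 CPM in Pkd1 controls (log2 difference 0.05, SE 0.221, adjusted p 1). The annotated span of Cdk4 overlaps that of the gene Tspan31 on the opposite strand (86982 reads over the 14 libraries). The counting is not stated to use strand, and whether exons are shared was not examined. How reads there were assigned is not known.

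Cdk6 had 76.3, 68.7, 81.4, 22.2 and 16.9 CPM in libraries 2, 4, 5, 6 and 7 labelled Cep120 KO, against 52.9, 67.3 and 55.2 CPM in the Cep120 controls. Libraries 6 and 7 were the lowest of the 14 libraries (log2 difference -0.14, SE 0.421, adjusted p 0.841). Nearly all Cdk6 reads (97.97 to 100%) came from the long transcript Cdk6-202. Cdk2, the cyclin E partner, had 105, 61.1, 63, 92.2 and 93.7 CPM in the libraries labelled Cep120 KO, against 77.5, 76.9 and 87 CPM in the Cep120 controls, a log2 difference of 0.04 (SE 0.183, adjusted p 0.892). Libraries 4 and 5 were below every control and libraries 2, 6 and 7 above. In the Pkd1 line Cdk6 had 50.6, 68.1 and 69 CPM in KO libraries, against 83.4, 57.5 and 71.2 CPM in controls (log2 difference -0.17, SE 0.472, edgeR adjusted p 1). Cdk2 had 79.6, 74.4 and 86.1 CPM in Pkd1 KO libraries, against 89.8, 86.7 and 77 CPM in Pkd1 controls (log2 difference -0.08, SE 0.205, adjusted p 1), and both kinases overlapped their controls.

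Cdkn1b varied most between libraries after the nearly silent Cdkn2c. It had 25.2, 36.4, 38.7, 4.59 and 4.43 CPM in libraries 2, 4, 5, 6 and 7 labelled Cep120 KO, against 12.9, 17.5 and 25.9 CPM in the Cep120 controls. Libraries 6 and 7 lay far below every control and libraries 4 and 5 above (log2 difference 0.22, SE 0.596, adjusted p 0.826). Each library against the mean of its line controls gave 0.48, 1.01 and 1.10 for libraries 2, 4 and 5 on the log2 CPM scale, and -1.95 for library 6 with library 7 slightly lower. Cdk6 split in the same way, with 0.39, 0.24 and 0.48 against -1.38 and -1.77, and Ccnd3 the other way, with 0.89 and 0.83 in libraries 6 and 7. Libraries 6 and 7 are those with high summed nephron progenitor marker levels. In the Pkd1 line Cdkn1b had 17.7, 16.3 and 24.3 CPM in KO libraries, against 24.5, 22.1 and 22.8 CPM in controls (log2 difference -0.26, SE 0.663, adjusted p 1).

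**Figure D4:**
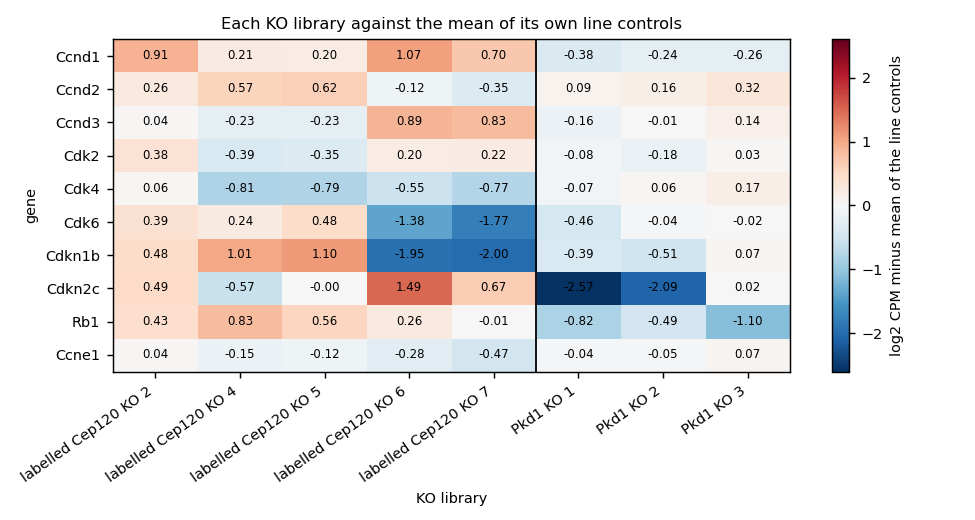
Difference of each KO library from the mean of its own line controls, log2 CPM, for the 10 genes (rows) and the 8 KO libraries (columns). Cdkn1b and Cdk6 are below controls in libraries 6 and 7 labelled Cep120 KO and above the control mean in libraries 2, 4 and 5.

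Cdkn2c was close to silent, with 0 to 24 estimated reads in any library. Its level was 0.107 to 0.752 CPM in libraries labelled Cep120 KO, against 0 to 0.739 CPM in the Cep120 controls, and 0 to 0.484 CPM in Pkd1 KO libraries, against 0.271 to 1.1 CPM in Pkd1 controls; no difference was detectable at this depth. Rb1 had 5.64, 7.46, 6.16, 4.98 and 4.14 CPM in libraries labelled Cep120 KO, against 6.28, 4.52 and 2.52 CPM in the Cep120 controls, and overlapped them (log2 difference 0.35, SE 0.317, adjusted p 0.46). In Pkd1 KO libraries Rb1 had 2.13, 2.7 and 1.73 CPM, against 3.57, 4.16 and 3.75 CPM in Pkd1 controls, each KO library below each control (log2 difference -0.80, SE 0.359, unadjusted p 0.0428, adjusted p 1). Ccnd1 and Rb1 were the members wholly below their Pkd1 controls, and 6.19% of all genes were, with 4.88% wholly above; no gene of 16876 was called in that comparison (0%), while 1.53% had an unadjusted p under 0.05. In the test of the Cep120 effect against the Pkd1 effect no member and no gene was called (0%), with Rb1 at 1.15 (SE 0.48, adjusted p 0.209) and Cdk4 at -0.59 (SE 0.296, adjusted p 0.276), and 20.4% of genes had an unadjusted p under 0.05. Without library 2 labelled Cep120 KO the test called Ccnd1 (0.89, edgeR adjusted p 0.0477) and Cdk4 (-0.78, edgeR adjusted p 0.00345). The share of all genes that this test called without library 2 is not given here, so these calls have no background beside them. With the same library left out, 5719 of 16825 genes were called against the Cep120 controls. The libraries left, 4 to 7, all had the length trend given above, so the label and that trend cannot be told apart there.

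The short non-coding model Rb1-206 took 19.61, 33.57, 28.08, 12.77 and 13.83% of Rb1 reads in libraries 2, 4, 5, 6 and 7 labelled Cep120 KO, against 12.48% in Cep120 control 1 and 0% in Cep120 controls 2 and 3. It was also at 0 in all 6 Pkd1-line libraries. Of the gene's TPM it made 52.62 to 87.99% in the libraries labelled Cep120 KO, against 44.58% in Cep120 control 1. These shares rest on 13.3 to 47 estimated reads where it was present. The annotated span of Rb1 overlaps those of the opposite-strand genes Rcbtb2 (38568 reads over the 14 libraries) and Lpar6 (17651 reads). Only spans were compared. Whether exons are shared, and how reads from such stretches were assigned, was not examined.

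Ccne1, the gene of cyclin E1, was the steadiest of the 10 genes between libraries. It had 23.5, 20.6, 21, 18.8 and 16.4 CPM in libraries labelled Cep120 KO, against 23.7, 23.2 and 21.7 CPM in the Cep120 controls, overlapping them (log2 difference -0.19, SE 0.154, adjusted p 0.409). Pkd1 KO libraries held 25, 24.8 and 27 CPM, against 24.6, 24.5 and 28 CPM in the Pkd1 controls. The Cep120 controls were below the Pkd1 controls (log2 difference -0.17, SE 0.173, adjusted p 0.998). Of all genes, 9.99% lay wholly below and 11.5% wholly above in that comparison, in which Cdk4 lay above (0.27). None of the 10 was called there, where 0.124% of all genes were (0.107% higher, 0.0178% lower) and 4.89% had an unadjusted p under 0.05.

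Over 14 libraries the genes most like each member in mean-centred log2 CPM were, by root-mean-square difference among 9610 genes, Riok1 (0.167) and Smad4 (0.176) for Ccnd1, Gna11 (0.121) and Smpd4 (0.134) for Ccnd2, and Tmem70 (0.113) and Mfsd10 (0.124) for Ccnd3. For the kinases they were Cdipt (0.0557) and Cct6a (0.0767) for Cdk2, Exosc5 (0.0683) and Psmd6 (0.072) for Cdk4, and Isg20l2 (0.175) and Wdcp (0.179) for Cdk6. They were Ric1 (0.154) and Ppp6r2 (0.174) for Cdkn1b, Schip1 (0.352) and Zfp64 (0.379) for Rb1, Smyd5 (0.0994) and Blmh (0.0999) for Ccne1, and Accs (0.828) and Gspt2 (0.832) for Cdkn2c, which has few reads.

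Of 31 other regulators of the same phase, 30 were tested; 4 rose and 3 fell in the libraries labelled Cep120 KO, against 8.4% and 6.26% of all genes, and 23 did not pass. Cdkn1a, the p21 inhibitor gene, had 85.9, 93.1, 110, 80.7 and 45 CPM in libraries labelled Cep120 KO, against 43.8, 40.2 and 41.1 CPM in the Cep120 controls (log2 difference 0.99, SE 0.256, edgeR adjusted p 0.0315). Every library was above every control, with library 7 nearest. Myc, a transcription factor that drives growth, had 39.5, 80.2, 75.4, 94 and 91.7 CPM in libraries labelled Cep120 KO, against 36.1, 37.9 and 51.6 CPM in the Cep120 controls (0.86, adjusted p 0.0398), library 2 lying among the controls. E2f8, an E2F repressor (1.14, edgeR adjusted p 0.0477), and Fzr1, an activator of the anaphase-promoting complex (0.99, edgeR adjusted p 0.0490), also rose. The lowest library labelled Cep120 KO had 6.82 CPM of E2f8, below every Cep120 control (7.22 to 9.77 CPM). With length and GC offsets the Fzr1 difference was 0.33 (edgeR adjusted p 0.404). Cdkn2d, an INK4 inhibitor gene, fell to 34 to 38.9 CPM in libraries labelled Cep120 KO, against 47.3 to 57.6 CPM in Cep120 controls (-0.60, adjusted p 0.0290). Pkd1-line libraries had 33.5 to 37.9 CPM of it in Pkd1 KO and 35.4 to 42.3 CPM in Pkd1 controls, levels near those of the libraries labelled Cep120 KO. Cks1b, a CDK-binding subunit (-0.81, adjusted p 0.0324), and Ccnh, of the CDK-activating kinase (-0.68, adjusted p 0.0495), also fell. Both overlapped their controls. Cks1b reached 427 CPM in libraries labelled Cep120 KO, against 426 to 514 CPM in the Cep120 controls. Ccnh reached 134 CPM, against 125 to 145 CPM. With length and GC offsets the differences were -0.29 for Cks1b (edgeR adjusted p 0.159) and -0.33 for Ccnh (edgeR adjusted p 0.125). Not past the threshold were Cdkn1c, the p57 gene (0.60, adjusted p 0.182), Ccne2 (-0.85, adjusted p 0.13), and the Rb1 relatives Rbl1 (0.26, adjusted p 0.369) and Rbl2 (0.63, adjusted p 0.216). The count of 7 was 0 without library 7 labelled Cep120 KO or any Cep120 control, 1 without library 5 or 6, 2 without library 4 or Pkd1 KO 1, 3 without any other Pkd1-line library, and 16 without library 2.

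**Figure D5:**
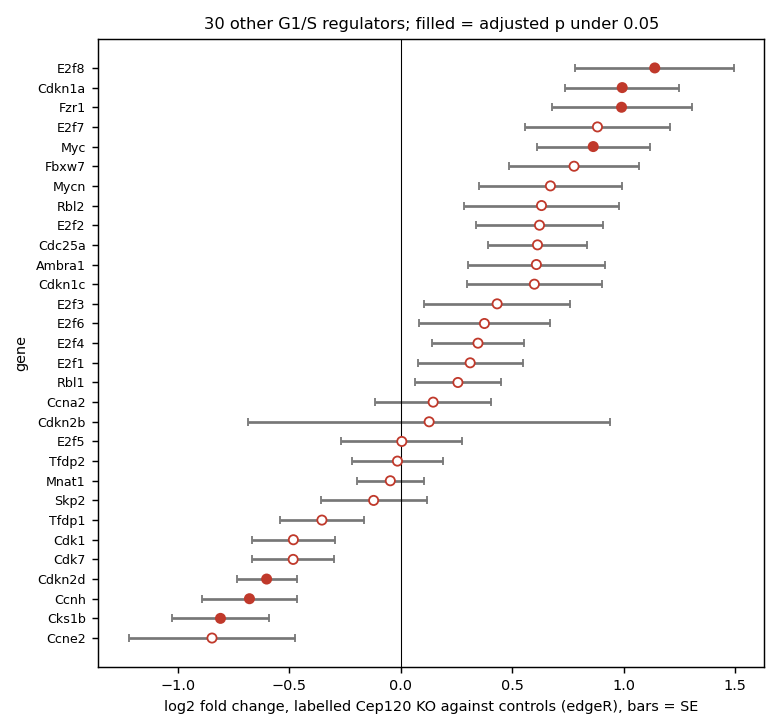
Log2 fold change (edgeR, bars are SE) of the 30 tested other regulators in libraries labelled Cep120 KO (n = 5) against their controls (n = 3); filled points have an adjusted p under 0.05. E2f8, Cdkn1a, Fzr1 and Myc are filled above 0, and Cdkn2d, Ccnh and Cks1b below.

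Of 15 E2F target genes, 1 fell, 0 rose and 14 did not pass, beside 6.26% of all genes lower and 8.4% higher. It was Tk1, thymidine kinase, at 102 to 139 CPM in libraries labelled Cep120 KO, against 173 to 199 CPM in the Cep120 controls (-0.64, SE 0.128, adjusted p 0.0290). Of 7 genes of the DREAM and MuvB complexes, which repress cell-cycle genes or activate those of mitosis, Foxm1 rose (1.29, edgeR adjusted p 0.0331) and Rbbp4 fell (-0.70, edgeR adjusted p 0.0291), beside the same background. Foxm1 had 7.87 to 28.5 CPM in libraries labelled Cep120 KO, against 6.51 to 10.3 CPM in the Cep120 controls, which overlap. The E2F count of 1 was 0 without library 7 labelled Cep120 KO or any Cep120 control, and 8 without library 2. The DREAM and MuvB count of 2 was 0 without library 6 or 7 or any Cep120 control, and 1 without library 4 or 5. On log2(TPM + 1), where the median of all genes was 0.42, every called gene of the 3 lists was higher (15 other regulators, 8 E2F targets and 4 of the complexes), and none of the 5 genes named here as fallen was called. Tk1 was then at 0.01, Rbbp4 at 0.07 and Ccnh at 0.02, a change of sign, and Cdkn2d at -0.005 and Cks1b at -0.23. None of these genes was called in the Pkd1 comparison, the test between the effects, or the comparison of controls.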

How the data were processed

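Bulk RNA-seq was measured in 14 libraries of sorted ureteric bud cells. Per the submitters' processing notes the reads were processed with DRAGEN on build mm9; the counting step is not stated in them. The authors deposited estimated counts per gene and transcript, TPM, and moderated log2 CPM, and the estimated counts were rounded to whole numbers, which changed no total by more than 0.000338%. Repeated gene lines (287) were dropped, leaving 55487 genes. Genes were filtered with filterByExpr (minimum count 10), scaled by TMM and tested with edgeR 4.0.16 quasi-likelihood (R 4.3.3) in 1 fit of 4 group means over 14 libraries (10 residual degrees of freedom), with Benjamini-Hochberg adjustment over 16876 genes and a threshold of 0.05. The script was tested on simulated data. Alternatives were limma 3.58.1, DESeq2 1.42.0, other scalings and left-out libraries.

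Libraries 4 and 5 labelled Cep120 KO were the most alike pair (chi-square per degree of freedom 4.55, the next pair 12.6). No label says whether they share a source, both were counted as separate libraries, and their sum was tried as an alternative (Ccnd1 adjusted p 0.0478). The 10 genes, the gene lists and the tests were chosen with earlier results of these data known. The genes named are the 10 members, from each list up to 4 called genes with the smallest adjusted p, all called genes and Cdkn1a, Cdkn1c, Ccne2, Rbl1 and Rbl2 among the other regulators, and the 2 genes most like each member. Positions are from GENCODE M21 (GRCm38), and sequences from RefSeq.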

Additional observations from a re-analysis of the deposited data

Results flagged for a closer look

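Cdk4 in the libraries labelled Cep120 KO had 1 library far from the others: library 2 stood at 1970 CPM, with the other 4 at 1080 to 1292 CPM and the Cep120 controls at 1774 to 1992 CPM. Its gap to the nearest library was 0.761 of the range, above the 95% limit for 5 values. Chance alone does this in about 1 in 20 groups.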

How the results depend on the processing

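Of 965 values of single members over the alternatives, 928 kept their side of the threshold, 19 lost a call, 16 gained one, 1 changed direction and was called only there (Cdk2 in libraries labelled Cep120 KO with voom, -0.33, adjusted p 0.0276, against 0.04, adjusted p 0.892), and 1 had no adjusted p (Cdkn2c between the effects with DESeq2); 77 uncalled values changed sign. The number of the 10 genes called in libraries labelled Cep120 KO was 1, and was 0 with no low-count filter, RLE size factors, a fit of those groups alone, all 6 controls pooled, library 2 alone, or length and GC offsets; it was 2 with DESeq2 or the deposited log2 CPM, 4 with voom and 5 with TPM, and 0 to 2 on leaving out 1 library. The count of other regulators called (7) was 0 with the separate fit, library 2 alone or offsets, 16 with voom, 15 with TPM, 3 without libraries 6 and 7, 2 without libraries 4 and 5 or with these summed, and 0 to 16 on leaving out 1 library. The E2F target count (1) was 0 with the separate fit or library 2 alone, 2 with no filter, the deposited log2 values or pooled controls, 3 with DESeq2 or without libraries 4 and 5, 7 with voom, 8 with TPM, and 0 to 8 on leaving out 1 library. The DREAM and MuvB count (2) was 0 with the separate fit or library 2 alone, 4 with TPM, 1 without libraries 6 and 7, without 4 and 5, with these summed or with offsets, and 0 to 3 on leaving out 1 library. Between the effects, 0 members were called, 3 with voom, and 0 to 2 on leaving out 1 library. The share of all genes called between the effects in those alternatives is not given here. Over all genes 2475 were called; 2235 with no filter, 2460 with RLE, 0 with the separate fit, 4199 with DESeq2, 6665 with voom, 3194 with the deposited log2 values, 4737 with TPM, 3711 with pooled controls, 1028 without libraries 6 and 7, 2065 without 4 and 5, 5 with library 2 alone, 1400 with 4 and 5 summed, 445 with offsets, and 2 to 5719 on leaving out 1 library. The voom fit used library quality weights. These were 3.85 and 3.34 for libraries 4 and 5 labelled Cep120 KO. They were 0.162, 0.125 and 0.138 for libraries 2, 6 and 7, so the voom results for that group rest mostly on libraries 4 and 5. The median of all genes was 0.12, but 0.45 on the deposited log2 values and 0.42 on TPM. Alternatives with libraries 4 to 7 left out or summed, and the offsets, were chosen after seeing the data, as were those for the 3 list counts other than leaving out 1 library. On leaving out library 2 labelled Cep120 KO, that group is libraries 4 to 7, all with the length trend given above. The cause of these changes in counts was not tested. With replicate number as a block in the Pkd1 line, 0 members were called. Same-number correlations of deviations from the group mean were -0.0851, -0.0299 and -0.147. They show no pairing by number, but cannot tell whether same-number libraries share a source. The Cep120 groups share too few numbers for a block.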
